A study of Mus musculus with 6 samples.

Results

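The genes described here encode 10 adhesion and homing molecules of lymphocytes, namely the integrin chains *Itgal*, *Itgb2*, *Itga4*, *Itgb1*, *Itgb7* and *Itgae*, the integrin ligand *Icam1*, the selectin ligand *Selplg*, the hyaluronan receptor *Cd44* and the retention molecule *Cd69*. They were taken by gene symbol, and all 10 were found both in a count table of 35602 genes and in the separate tables of 34714 genes that hold the replicate 1 pair. The samples were CD4+ T cells from mouse spleen that received anti-CD3/CD28 stimulation and either the solvent DMSO or MAPK13-IN-1, an inhibitor of the kinase encoded by *Mapk13*, with 3 libraries per group and a stated culture of 72 h. The labels give a WT genotype for replicates 2 and 3 and place the addition of 17.1 µM inhibitor, or of DMSO, after day 1 of stimulation, whereas the design text has it present for the whole 72 h. For the replicate 1 pair the labels give the tissue, the cells and the agent, but no genotype, dose or day. Its titles carry no replicate number either (the files are named C4 and M4), so the number 1 was given here as a name only. Strain, age and sex of the mice are not given in the labels, and nothing there says that replicates came from separate cultures or animals, so the p-values measure only the spread between these samples, which may be technical. Replicates 2 and 3 were deposited as counts, with totals of 26874805 and 28487403 in the DMSO libraries and 33854760 and 32617702 in the inhibitor libraries. They are given here as CPM, the usual scale of counts relative to the library total, after scaling by edgeR's TMM method. The replicate 1 pair was made with another library kit and is read as FPKM, a value normalized for gene length and depth. That unit was inferred from the values and no depth could be read from them, so the pair is described by its values alone.

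Integrins are surface heterodimers of an alpha and a beta chain that hold leukocytes to vessel walls, matrix and other cells. The alpha L and beta 2 chains form LFA-1, which binds ICAM-1 at the T-cell synapse and on endothelium, alpha 4 pairs with beta 1 to bind VCAM-1 and fibronectin or with beta 7 to bind MAdCAM-1 in the gut, and alpha E with beta 7 binds E-cadherin on epithelium. PSGL-1, the product of *Selplg*, lets cells roll on selectins, CD44 binds hyaluronan and is raised on antigen-experienced T cells, and CD69 keeps activated cells in tissue by taking the egress receptor S1PR1 off the surface.

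Markers of the labelled cell type were present but were not alone. The 8 CD4 T-cell markers, all detected in each of the 4 count libraries, summed to 1846 and 1885 CPM in DMSO replicates 2 and 3 and to 955 and 1093 CPM in inhibitor replicates 2 and 3. The most abundant of them in the DMSO libraries was *Cd5*, at 426 and 439 CPM there and at 154 and 200 CPM with the inhibitor, and in the inhibitor libraries it was *Cd4*, at 275 and 276 CPM in DMSO and at 267 and 283 CPM with the inhibitor. Of these markers 7 fell and *Cd4* was not called (adjusted p = 0.993, edgeR quasi-likelihood F-test, Benjamini-Hochberg-adjusted). The CD3 chains of the T-cell receptor complex and *Lck* were among those that fell. The 10 B-cell markers found in the count table, of 12 listed, summed to 1142 and 1119 CPM in DMSO and to 1311 and 1334 CPM with the inhibitor, with 7 higher, 2 lower and none of the 10 at 0 in any of the 4 libraries. In the inhibitor libraries their most abundant gene was *Pax5*, at 178 and 168 CPM in DMSO and at 263 and 271 CPM with the inhibitor. The cells had been taken from spleen with a commercial kit for mouse CD4 T cells, by the methods of the study, and these sums go against a preparation of T cells alone in replicates 2 and 3. In the replicate 1 pair the T-cell markers summed to 1116 FPKM in DMSO and 1147 FPKM with the inhibitor and the B-cell markers to 52.3 and 36.5 FPKM, and the macrophage and dendritic-cell markers were at 4.11 and 14.0 FPKM. The 12 macrophage and dendritic-cell markers summed to 15.4 and 14.2 CPM in DMSO and to 50.5 and 42.6 CPM with the inhibitor, mostly *Cd68* (10.5, 9.30, 28.5 and 25.1 CPM in the same order), with 7 of the 8 tested higher and 5, 4, 0 and 3 markers at 0 counts. Of those higher, *C1qb* and *Xcr1* passed the count filter only through the inhibitor libraries, so the tally is not used here. By their sums and by *Cd68*, myeloid transcripts were scarce and higher with the inhibitor. The endothelial list reached 40.6 and 38.0 CPM in DMSO and 77.0 and 72.5 CPM with the inhibitor through *Pecam1*, which lymphocytes also express (39.8, 36.9, 75.4 and 70.3 CPM), with *Emcn* at 0 in all 4 libraries. The 5 platelet markers summed to 10.0, 9.08, 17.5 and 18.4 CPM, nearly all of it from *Itga2b*, with *Ppbp* at 0 in all 4. The CD8 T-cell markers summed to 11.7, 10.9, 5.49 and 7.85 CPM, and the NK and neutrophil lists stayed under 1 CPM in every library, with *Klra8* and *S100a9* at 0. A count of 3, the limit that a count of 0 allows, was worth 0.0845 to 0.116 CPM in these libraries, which covers counting error only. Several of the 10 adhesion genes are expressed by B and myeloid cells as well as by T cells. In bulk samples fewer cells of a type and less RNA per cell cannot be told apart, and the part of these markers in the results on adhesion genes was not tested.

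The question put by the design is which RNAs differ between inhibitor-treated and DMSO-treated cells. *Cd44*, *Icam1*, *Itga4* and *Itgb1* rose in replicates 2 and 3, and *Itgb2*, *Cd69* and *Selplg* fell. All 10 genes passed the filter on low counts, with between 241 counts (*Itgae*, DMSO replicate 2) and 26971 counts (*Itgal*, inhibitor replicate 3). At an adjusted p under 0.05 (edgeR quasi-likelihood F-test, Benjamini-Hochberg-adjusted), 4 of the 10 passed upward and 3 downward, against a background of 31.5% of the 16269 genes tested that were higher and 32.3% that were lower. These shares are near the background, so the count says little about these genes as a group. With an absolute log2 fold change over 1 required as well, 1 gene was higher (*Cd44*) and 0 were lower, where 13.0% and 10.4% of all genes tested passed. The median log2 fold change was 0.13 over the 10 genes and 0.01 over all genes tested. Scaling by library totals alone, without TMM, moved the log2 fold changes of all genes up by a median of 0.13. In the replicate 1 pair 7 of the 10 had a higher and 3 a lower value with the inhibitor, where 56.5% and 43.5% of the 11510 genes with at least 1 FPKM in either library were higher and lower. A log2 ratio past 1, on the scale of log2(FPKM + 1), was reached by 3 genes upward (*Icam1*, *Cd44* and *Itga4*) and by 0 downward, against 7.12% and 1.91% of those genes. Setting this pair beside the libraries titled 2 and those titled 3, none of which need share a culture, 4 of the 10 (*Cd44*, *Icam1*, *Itga4* and *Itgb1*) were higher with the inhibitor in all 3 comparisons and 0 were lower in all 3, where 32.2% and 23.4% of the 15825 genes tested that also have replicate 1 values were higher and lower in all 3.

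**Figure D1:**
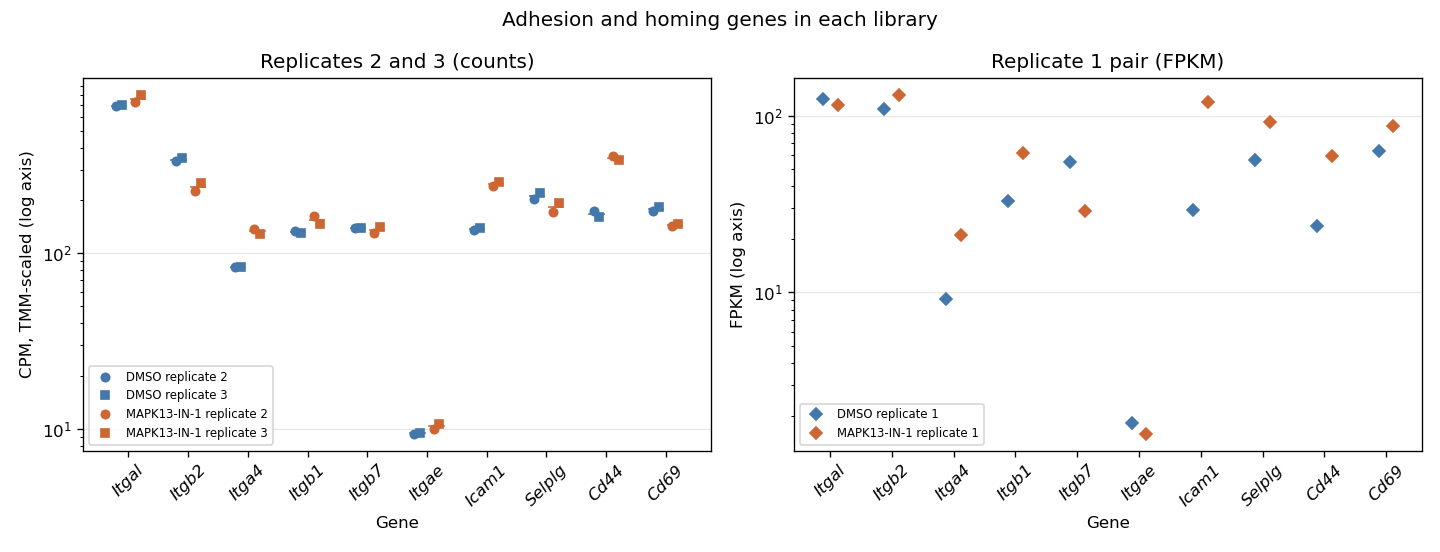
Levels of the 10 genes in each library, as TMM-scaled CPM for replicates 2 and 3 (left, short lines mark the group means, n = 2) and as FPKM for the replicate 1 pair (right), both on log axes. *Cd44*, *Icam1*, *Itga4* and *Itgb1* lie higher with the inhibitor in both panels, while *Itgb2*, *Selplg* and *Cd69* lie lower with it in the left panel and higher in the right.

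*Itgal* (chr7:127296260-127335138, plus strand, GRCm38) encodes alpha L, the chain of LFA-1 that carries the ligand-binding domain. Its level was 691 and 701 CPM in DMSO replicates 2 and 3 and 727 and 796 CPM in inhibitor replicates 2 and 3. Both inhibitor libraries lay above both DMSO libraries, and inhibitor replicate 3 was the highest. The log2 fold change of 0.13 ± 0.0547 (SE, n = 2 per group) did not pass (adjusted p = 0.059, edgeR quasi-likelihood F-test, Benjamini-Hochberg-adjusted). It did pass with scaling by RLE, by the upper quartile (log2 fold change 0.21) or by library totals (0.25). The call was also gained with other count filters and without inhibitor replicate 2 (log2 fold change 0.19). Without inhibitor replicate 3 the log2 fold change was 0.06 and did not pass. Over all alternatives the adjusted p ranged from 3.79e-06 to 0.329. Replicate 1 had *Itgal* at 123 FPKM in DMSO and 114 FPKM with the inhibitor, the other direction.

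*Itgb2* (chr10:77530252-77565708, plus strand) encodes beta 2, the chain that alpha L shares with the leukocyte integrins of myeloid cells. Its level was 336 and 348 CPM in the DMSO libraries and 227 and 251 CPM in the inhibitor libraries. The groups did not overlap, and their means were 342 ± 8.49 and 239 ± 16.6 CPM (SD, n = 2 each). *Itgb2* fell 1.43-fold, with a log2 fold change of −0.52 ± 0.0608 (SE; adjusted p = 3.56e-05, edgeR quasi-likelihood F-test, Benjamini-Hochberg-adjusted). The replicate 1 pair went the other way, with 110 FPKM in DMSO and 130 FPKM with the inhibitor. The chains of LFA-1 thus differed in their change. The log2 ratio of *Itgal* to *Itgb2*, per length of exon, was −0.07 and −0.10 in DMSO and 0.57 and 0.56 with the inhibitor. The same ratio in replicate 1 was 0.17 in DMSO and −0.19 with the inhibitor. The 4 count libraries thus had near-equal alpha L and beta 2 levels in DMSO and more alpha L with the inhibitor, and the replicate 1 pair did not.

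*Itga4* (chr2:79255426-79333123, plus strand) encodes alpha 4, which pairs with beta 1 or beta 7. Its level was 83.6 and 83.7 CPM in the DMSO libraries and 138 and 128 CPM in the inhibitor libraries. The groups did not overlap. *Itga4* rose 1.59-fold, with a log2 fold change of 0.67 ± 0.0633 (SE, n = 2 per group; adjusted p = 7.23e-06, edgeR quasi-likelihood F-test, Benjamini-Hochberg-adjusted). Replicate 1 had 9.21 FPKM in DMSO and 21.2 FPKM with the inhibitor, again higher. An antisense gene, *Cerkl*, shares 905 exon bases with *Itga4*, and the sources used here do not say that replicates 2 and 3 were counted by strand. *Cerkl* had 34 and 33 counts in DMSO and 20 and 22 counts with the inhibitor, against 2155 to 4899 counts on *Itga4*.

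*Itgb1* (chr8:128685654-128733200, plus strand) encodes beta 1, the common partner of the matrix-binding integrins. Its level was 134 and 130 CPM in the DMSO libraries and 163 and 148 CPM in the inhibitor libraries. Both inhibitor libraries lay above both DMSO libraries, with a spread within the inhibitor group of about the size of the gap. *Itgb1* rose 1.18-fold, with a log2 fold change of 0.23 ± 0.0653 (SE, n = 2 per group; adjusted p = 0.00976, edgeR quasi-likelihood F-test, Benjamini-Hochberg-adjusted). Without DMSO replicate 3 the log2 fold change was 0.20 and the call was lost (adjusted p = 0.106 from edgeR), within a range of 4.20e-08 to 0.106 over all alternatives. With library totals the log2 fold change was 0.36. The replicate 1 pair had 32.8 FPKM in DMSO and 61.8 FPKM with the inhibitor, a larger difference in the same direction.

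*Itgb7* (chr15:102215995-102231944, minus strand) encodes beta 7, the chain of the gut-homing integrin and of the alpha E integrin. Its level was 138 and 140 CPM in the DMSO libraries and 130 and 141 CPM in the inhibitor libraries. The groups overlapped, with the lowest and the highest value both in the inhibitor group. The log2 fold change was −0.04 ± 0.0619 (SE, n = 2 per group; adjusted p = 0.587, edgeR quasi-likelihood F-test, Benjamini-Hochberg-adjusted), and it was above 0 with upper-quartile scaling (0.04), with library totals (0.08), with at least 10 counts in every library (0.0045) and without inhibitor replicate 2 (0.02), and −0.11 without inhibitor replicate 3 (adjusted p from 0.0712 to 0.952 over the alternatives, edgeR or DESeq2). In the replicate 1 pair *Itgb7* was at 54.6 FPKM in DMSO and 28.9 FPKM with the inhibitor, the lowest ratio of the 10 genes there (log2 ratio −0.89).

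*Itgae* (chr11:73090583-73147446, plus strand) encodes alpha E, also called CD103. Its level was 9.35 and 9.45 CPM in the DMSO libraries and 10.0 and 10.7 CPM in the inhibitor libraries. The inhibitor libraries lay slightly higher without overlap, and the log2 fold change of 0.14 ± 0.124 (SE, n = 2 per group) did not pass (adjusted p = 0.358, edgeR quasi-likelihood F-test, Benjamini-Hochberg-adjusted). It was 0.08 without inhibitor replicate 3, 0.22 with upper-quartile scaling and 0.26 with library totals, and passed under none of the alternatives run (adjusted p from 0.0864 to 0.651 by edgeR or DESeq2). The replicate 1 pair had 1.81 FPKM in DMSO and 1.59 FPKM with the inhibitor. Per length, *Itgae* was the least abundant of the 10 genes in every library.

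Ratios within a library show how the chains that can pair stood to each other. Per length, the log2 ratio of *Itga4* to *Itgb7* was −3.06 and −3.08 in the DMSO libraries, −2.25 and −2.47 in the inhibitor libraries, and −2.57 and −0.45 in the replicate 1 pair. More alpha 4 relative to beta 7 RNA was thus present with the inhibitor in each of the 3 comparisons of libraries. The log2 ratio of *Itgb7* to *Itgb1* was 0.60 and 0.66 in DMSO, 0.23 and 0.49 with the inhibitor, and 0.74 and −1.09 in the replicate 1 pair. The balance between the beta chains that alpha 4 can use lay further toward beta 1 in every inhibitor library than in every DMSO library. For *Itga4* to *Itgb1* the log2 ratio was −2.46 and −2.42 in DMSO, −2.02 and −1.98 with the inhibitor, and −1.83 and −1.54 in the replicate 1 pair. For *Itgae* to *Itgb7* it was −4.62 and −4.61, −4.42 and −4.45, and −4.91 and −4.19, so alpha E stayed far below its partner. These ratios do not depend on how libraries are scaled, but an exact permutation test of 2 against 2 libraries cannot go below p = 0.333, and no test was made.

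**Figure D2:**
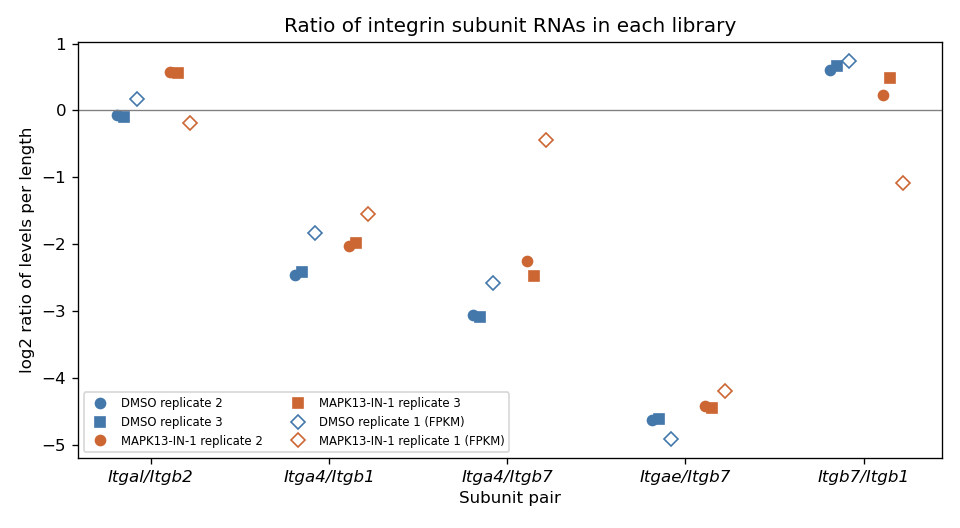
Log2 ratio of the levels per length of integrin chains that can pair, in each of the 6 libraries (filled points, TMM-scaled CPM per kilobase in replicates 2 and 3; open points, FPKM in replicate 1). The *Itga4* to *Itgb7* ratio lies higher and the *Itgb7* to *Itgb1* ratio lower with the inhibitor in each pair, and the *Itgal* to *Itgb2* ratio lies higher with the inhibitor in replicates 2 and 3 and lower in replicate 1.

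*Icam1* (chr9:21015985-21028817, plus strand) encodes the ligand of LFA-1, which lymphocytes also carry and raise on activation. Its level was 136 and 139 CPM in the DMSO libraries and 240 and 256 CPM in the inhibitor libraries. The groups did not overlap, and every inhibitor value exceeded the DMSO values by over 100 CPM. *Icam1* rose 1.80-fold, with a log2 fold change of 0.85 ± 0.0579 (SE, n = 2 per group; adjusted p = 8.19e-07, edgeR quasi-likelihood F-test, Benjamini-Hochberg-adjusted). For replicate 1 the values were 29.3 FPKM in DMSO and 120 FPKM with the inhibitor, 4.07-fold higher and the largest ratio of the 10 genes in that pair. The ligand thus lay higher with the inhibitor in all 3 comparisons of libraries, while the beta 2 chain of its receptor fell in replicates 2 and 3. A gene on the other strand, *Gm47079*, shares 511 exon bases with *Icam1* in the annotation and has no row in the count table.

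*Selplg* (chr5:113818536-113832644, minus strand) encodes PSGL-1, the main selectin ligand of leukocytes. Its level was 205 and 220 CPM in the DMSO libraries and 172 and 193 CPM in the inhibitor libraries. The groups did not overlap, but DMSO replicate 2 and inhibitor replicate 3 were close. *Selplg* fell 1.16-fold, with a log2 fold change of −0.22 ± 0.068 (SE, n = 2 per group; adjusted p = 0.0164, edgeR quasi-likelihood F-test, Benjamini-Hochberg-adjusted). The call was lost with upper-quartile scaling (log2 fold change −0.14, adjusted p = 0.092 from edgeR). Library totals lost it as well (log2 fold change −0.09, adjusted p = 0.234 from edgeR, the highest over all alternatives). It was also lost without DMSO replicate 3 (log2 fold change −0.18). Without inhibitor replicate 2 the log2 fold change was −0.14. *Selplg* was higher with the inhibitor in the replicate 1 pair, at 91.7 FPKM against 56.1 FPKM in DMSO.

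*Cd44* (chr2:102811141-102901665, minus strand) encodes the hyaluronan receptor that marks activated and memory T cells. Its level was 173 and 162 CPM in the DMSO libraries and 361 and 339 CPM in the inhibitor libraries. The lowest inhibitor value was about as far above the highest DMSO value as that value was above 0. *Cd44* rose 2.09-fold, from 168 ± 8.12 to 350 ± 15.4 CPM (SD, n = 2 each), with a log2 fold change of 1.06 ± 0.060 (SE; adjusted p = 2.63e-07, edgeR quasi-likelihood F-test, Benjamini-Hochberg-adjusted). The replicate 1 pair had 23.6 FPKM in DMSO and 59.3 FPKM with the inhibitor, 2.51-fold higher.

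*Cd69* (chr6:129267325-129275436, minus strand) encodes an early activation antigen that holds back egress. Its level was 174 and 184 CPM in the DMSO libraries and 142 and 146 CPM in the inhibitor libraries. The groups did not overlap, and the inhibitor libraries were close to each other. *Cd69* fell 1.24-fold, with a log2 fold change of −0.31 ± 0.0587 (SE, n = 2 per group; adjusted p = 0.000873, edgeR quasi-likelihood F-test, Benjamini-Hochberg-adjusted), or −0.19 with library totals. Replicate 1 went the other way with the inhibitor, at 87.3 FPKM against 63.3 FPKM in DMSO. The activation markers *Cd44* and *Cd69* thus moved in opposite directions in replicates 2 and 3, and both were higher with the inhibitor in replicate 1.

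**Figure D3:**
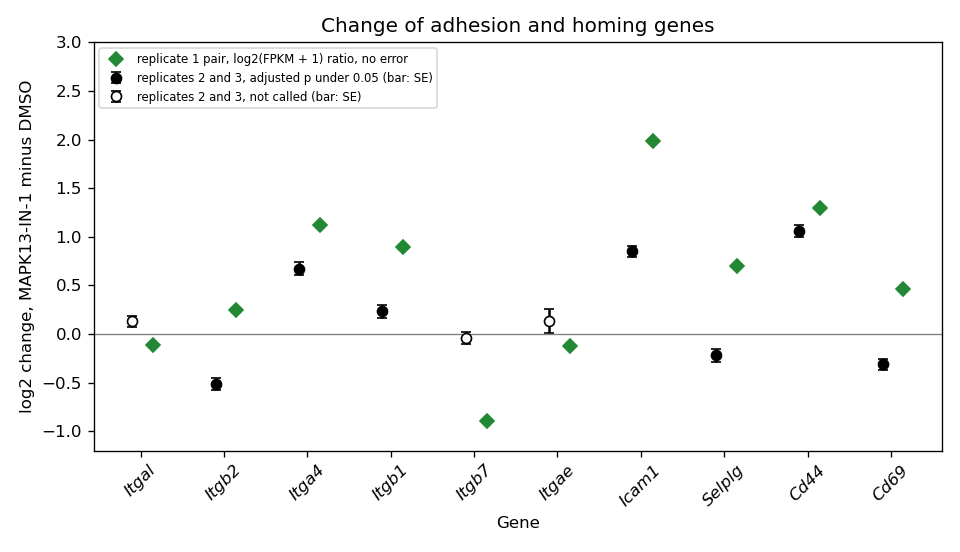
Log2 change of the 10 genes with the inhibitor, as edgeR log2 fold changes of replicates 2 and 3 (circles, filled where the adjusted p was under 0.05, bars give the SE, n = 2 per group) and as log2(FPKM + 1) ratios of the replicate 1 pair (diamonds, 1 library per group and no error). *Cd44* at 1.06 is the only circle above 1, and *Icam1* at 1.99 is the highest diamond; the circle of *Itgb7* changes sign with upper-quartile or library-total scaling, with at least 10 counts in every library and without inhibitor replicate 2.

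Compared per length, the LFA-1 chains were the most abundant of the 10 in each library except inhibitor replicate 1, where *Icam1* (120 FPKM) stood between *Itgb2* (130 FPKM) and *Itgal* (114 FPKM). In the DMSO libraries *Itgb2* was at 112 ± 2.78 and *Itgal* at 106 ± 1.06 CPM per kilobase of exon (SD, n = 2). They were followed by *Itgb7* (50.3 ± 0.365) and *Selplg* (49.7 ± 2.50), which did not differ beyond their spread, and by *Itgb1* (32.4 ± 0.690) and *Icam1* (31.6 ± 0.404), whose SD ranges overlapped. *Cd69* (27.5 ± 1.17), *Cd44* (24.7 ± 1.20), *Itga4* (5.98 ± 0.00415) and *Itgae* (2.05 ± 0.0161) came last. With the inhibitor *Itgal* (116 ± 7.45 CPM per kilobase) stood above *Itgb2* (78.4 ± 5.45). *Icam1* (56.9 ± 2.50) and *Cd44* (51.6 ± 2.28) came next in that order, above *Itgb7* (48.9 ± 2.78), *Selplg* (42.8 ± 3.39) and *Itgb1* (38.1 ± 2.73). The SD ranges of neighbours from *Cd44* to *Itgb1* in this order overlapped. Both *Itgb7* values (46.9 and 50.8) nevertheless lay above both *Selplg* values (40.4 and 45.2). *Cd69* (22.1 ± 0.400), *Itga4* (9.53 ± 0.483) and *Itgae* (2.25 ± 0.101) were again the lowest. The length is that of all annotated exons of a gene, which for *Itga4* comes to 13978 bases over 5 transcripts, so that its level per length is low if a shorter transcript prevails.

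The promoters of 5 of the 10 genes (*Itga4*, *Itgb1*, *Itgb7*, *Cd44* and *Icam1*) were matched in the RefSeq table for GRCm38.p6, and the 250 bases before the RefSeq transcription start were searched on both strands for GGANNTTCC (NF-kappaB-like), TTCNNNGAA (STAT-like) and CTTTGAT (TCF-like). Of 32851 promoter windows of that length, 3.59%, 7.02% and 3.21% held these letters. Among the 5 genes, *Icam1* held the first motif at base −153 and the second at base −42, counted from the start and not overlapping, and none of the other 4 windows held any of the 3 motifs. The windows of the genes with the largest rises, *Icam1* (chr9:21015690-21015939, plus strand) and *Cd44* (chr2:102901666-102901915, minus strand), are printed 5′ to 3′ to show the letters beside each other, with motif matches in capitals. A match is a description of the letters and not a binding site.
Icam1: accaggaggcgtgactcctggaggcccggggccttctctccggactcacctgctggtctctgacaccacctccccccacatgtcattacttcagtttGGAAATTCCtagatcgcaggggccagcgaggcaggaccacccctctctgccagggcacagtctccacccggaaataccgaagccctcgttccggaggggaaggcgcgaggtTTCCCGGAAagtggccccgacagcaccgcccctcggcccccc
Cd44: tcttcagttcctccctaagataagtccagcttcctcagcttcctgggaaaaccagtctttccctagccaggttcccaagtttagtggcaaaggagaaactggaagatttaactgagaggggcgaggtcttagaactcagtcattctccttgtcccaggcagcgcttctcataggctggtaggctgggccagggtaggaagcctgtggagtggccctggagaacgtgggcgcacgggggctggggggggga

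Other genes of the adhesion pathways were read from 7 lists, beside 63.8% of all genes tested that were called. Among the other integrin subunits 17 of 21 were tested, 6 were higher and 3 lower (5 lower without inhibitor replicate 3), with a median log2 fold change of 0.04. *Itgb4* and *Itgb5* rose (1.41 and 1.15) and *Itga2* and *Itgb8* fell (−1.21 and −0.93), all under 15 CPM. Of the selectins, their ligands and the enzymes that build their glycans, 10 of 18 tested were higher and 4 lower (median 0.32). E-selectin (*Sele*) rose from 0.388 and 0.331 CPM to 11.7 and 14.0 CPM. It had 10 and 9 counts in DMSO, and *Podxl*, also called higher, had 10 and 7. These 2 genes needed the inhibitor libraries to pass the count filter. With at least 10 counts in every library, which leaves them out, 8 of the list were higher. Enzymes that act on PSGL-1 glycans differed in direction, with *Gcnt1* and *St3gal6* higher (1.58 and 1.26) and *Fut7* lower (−1.27), and the sulfotransferase *Chst2* fell (−1.57). Of 39 genes tested of the machinery that activates integrins from inside the cell, 22 were higher and 6 lower (median 0.22). Talin (*Tln1*) was at 497 and 493 CPM in DMSO and 483 and 499 CPM with the inhibitor and was not called, kindlin-3 (*Fermt3*) and *Parvg* fell (−0.65 and −0.77), and *Rasa3*, which switches off Rap1, rose (1.13). Of the integrin ligands, 1 was higher and 5 were lower of 12 tested (3 higher without inhibitor replicate 2; median 0.22), whereas in the replicate 1 pair 6 had a higher and 3 a lower value of the 9 with at least 1 FPKM in either library (median log2 ratio 1.29). *Madcam1*, counted among the 5 lower, had 30 and 24 counts in DMSO and 0 and 5 with the inhibitor. It passed the count filter only through the DMSO libraries, where it was high. With at least 10 counts in every library, which leaves *Madcam1* out, 4 of the list were lower and 2 higher. *Icam2*, a further ligand of LFA-1, fell from 20.4 and 21.3 CPM to 4.79 and 6.88 CPM (−1.84), unlike *Icam1*, and *Mfge8* rose (0.64). *Vcam1* had 0 counts in both DMSO libraries and under 1 CPM with the inhibitor and was not tested. In the replicate 1 pair it was at 0.0661 FPKM in DMSO and 1.98 FPKM with the inhibitor.

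Egress and homing receptors had 7 higher and 4 lower of 16 tested (2 lower without DMSO replicate 2 or without DMSO replicate 3; median 0.16). The partner that CD69 removes from the surface, *S1pr1*, was at 13.7 and 15.2 CPM in DMSO and 15.2 and 17.1 CPM with the inhibitor and was called only with library totals (log2 fold change 0.16, adjusted p = 0.243 from edgeR; log2 fold change 0.29 and adjusted p = 0.0468 with library totals; up to 0.747 over the alternatives), and its log2 fold change was 0.07 without DMSO replicate 2, 0.07 without inhibitor replicate 3 and 0.25 without inhibitor replicate 2. In the replicate 1 pair *S1pr1* was at 6.78 FPKM in DMSO and 16.1 FPKM with the inhibitor (log2 ratio 1.14). *Cxcr4* and *Spns2*, the chemokine receptor for CXCL12 and a sphingosine-1-phosphate exporter, rose (1.33 and 1.47), while *Gpr15* and *Gpr18* fell (−0.71 and −0.58). In the replicate 1 pair *Spns2* was barely present, at 0.0408 FPKM in DMSO and 0.0668 FPKM with the inhibitor. *Ccr7*, which guides cells into lymph nodes, rose from 652 and 660 CPM to 714 and 807 CPM (0.21, adjusted p = 0.0102 from edgeR). Its call was lost without DMSO replicate 2, where the log2 fold change was about as large (0.19). Without inhibitor replicate 3 the log2 fold change was 0.12. Of the genes that work with CD44 or on hyaluronan, 10 were higher and 4 lower of 18 tested (6 higher without DMSO replicate 2; median 0.29). *Ank3*, *Cemip* and *Mmp9*, counted among the 10, passed the count filter only through the inhibitor libraries, where they were high. *Hyal1*, also among the 10, had 11 and 8 counts in DMSO and needed the inhibitor libraries to pass. With at least 10 counts in every library, which leaves these genes out, 7 were higher. That filter also moved the log2 fold changes of the genes kept up by a median of 0.045. Moesin (*Msn*), which links CD44 to actin, rose from 797 and 810 CPM to 1015 and 948 CPM (0.29), and the sheddases that cut CD44 split, with *Adam17* higher (0.67) and *Adam10* lower (−0.32, or −0.19 with library totals). Among other adhesion receptors 17 were higher and 11 lower of 37 tested (median 0.20). *Alcam* and *Cd24a* rose (1.99 and 1.85; 2.06 and 1.75 in the replicate 1 pair), and *Cd2*, a T-cell adhesion receptor, fell (−1.26; −0.32 in the replicate 1 pair). CD43 (*Spn*), a large sialomucin of leukocytes, fell from 380 and 395 CPM to 84.0 and 107 CPM (−2.02) in replicates 2 and 3 and was at 70.0 and 81.1 FPKM in the replicate 1 pair. The medians of the 7 lists lay between 0.04 and 0.32, beside 0.01 for all genes tested. In the replicate 1 pair they lay between 0.07 (integrin activation) and 1.29 (integrin ligands), with 0.76 for other adhesion receptors and 0.58 for other integrin subunits (8 higher and 1 lower), beside 0.08 for all genes with at least 1 FPKM in either library. No list was compared with other genes by a test.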

How the data were processed

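For replicates 2 and 3 the authors deposited raw counts per gene in a table with 0 unused columns; their processing notes name fastp 0.21.0, HISAT2 2.1.0 and StringTie 2.1.5 with mm10. For replicate 1 the authors deposited 1 value per gene, taken here as FPKM; the notes name FastQC and HISAT2. The count table was tested with edgeR 4.0.16 under R 4.3.3 (filterByExpr with a minimum count of 10 and total of 15, TMM factors of 0.960, 0.955, 1.05 and 1.04, quasi-likelihood test, 2 libraries against 2, Benjamini-Hochberg adjustment over 16269 genes), after the code had been tested on simulated data. Replicate 1 ratios used a pseudocount of 1, which understates changes of low genes. Exon lengths and positions came from GENCODE M21. Members and lists were chosen with earlier results of these data known. Named genes were the 10 members, of each other list at most 4 called genes of largest change with a mean of at least 5 CPM, and a fixed set of adhesion genes and study genes. Some single genes under this rule were left out of the text. Alternatives were other scalings and filters, DESeq2 1.42.0, a replicate block and each library left out. By the mean over genes, the replicates in each group differed by more than sampling noise (mean chi-square per gene 2.94 in DMSO and 8.82 with the inhibitor). The medians were lower, at 0.98 and 1.92. Such a chi-square is skewed, and its median lies below its mean under sampling noise alone. The gap thus does not show that only a part of the genes exceeded the noise.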

Additional observations from a re-analysis of the deposited data

Results flagged for a closer look

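In 5 of the 10 adhesion genes the replicate 1 pair moved opposite to pairs 2 and 3, which join libraries by the number in their titles, a difference that was not tested, between libraries of another kit and unit. The replicate 1 titles carry no number. The same held for 32.4% of the 15825 genes tested that have replicate 1 values. The log2 ratio in the replicate 1 pair was −0.11 for *Itgal* (0.07 and 0.18 in pairs 2 and 3), 0.25 for *Itgb2* (−0.56 and −0.47), −0.12 for *Itgae* (0.10 and 0.17), 0.70 for *Selplg* (−0.25 and −0.19) and 0.46 for *Cd69* (−0.29 and −0.34).

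Other named genes did the same, also untested. Lower in pairs 2 and 3 but higher in the replicate 1 pair were *Itga2* (0.58), *Chst2* (0.38), *Gpr18* (0.24), *Spn* (0.21), *Itgb3* (1.68), *Rap1b* (0.12), *Slamf1* (0.79) and *Mapk13* (1.84). *Itgb3* was not called in replicates 2 and 3. Its fold change there turned positive with upper-quartile or library-total scaling, without DMSO replicate 2 and without inhibitor replicate 3. *Mapk13* was scarce, at 3.06 and 2.72 CPM in DMSO and 0.592 and 1.51 CPM with the inhibitor. In the replicate 1 pair it was at 0.191 FPKM in DMSO and 3.28 FPKM with the inhibitor. Its log2 ratios were −2.37 and −0.85 in pairs 2 and 3, with a fitted log2 fold change of −1.47. That fitted value was −2.29 without inhibitor replicate 3 and −0.94 without inhibitor replicate 2. Higher in pairs 2 and 3 but lower in the replicate 1 pair were *Rapgef1* (−0.10) and *Rasgrp2* (−0.82). *Cd48* was lower in the replicate 1 pair (−0.13), with no difference in pair 2 (0.00) and a higher value in pair 3 (0.20; not called in replicates 2 and 3 unless scaled by library totals or without inhibitor replicate 2, adjusted p = 0.0216 and 0.0343 from edgeR, up to 0.746). The calls of *Rap1b*, *Rapgef1* and *Rasgrp2* (log2 fold changes −0.16, 0.14 and 0.26) were lost without DMSO replicate 2 (−0.18, 0.09 and 0.23). They were also lost without DMSO replicate 3 (−0.16, 0.16 and 0.27). The fold changes of *Rap1b* and *Rasgrp2* thus stayed about as large in both cases. Without inhibitor replicate 3 the call of *Rap1b* was lost at a log2 fold change of −0.10. *Rap1b* also lost its call with RLE (0.0599), upper-quartile (0.296) or library-total scaling (0.664, log2 fold change −0.03), at least 10 counts in every library (0.124) and DESeq2 (0.0858), and so was called in 3 of 11 alternatives. *Rapgef1* lost it with no low-count filter (0.0549) and DESeq2 (0.0592), and *Rasgrp2* with DESeq2 (0.0706). Their adjusted p ranged from 1.87e-05 to 0.664, 0.00119 to 0.467 and 0.00212 to 0.175 over all alternatives. The replicate 1 pair also had far lower levels of B-cell markers than T-cell markers (52.3 against 1116 FPKM in DMSO), unlike replicates 2 and 3, and the part of this in the differences was not tested.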

How the results depend on the processing

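Of 110 repeats of the log2 fold changes of the 10 genes, 95 kept direction and side of the threshold, 4 lost the call, 7 gained it and 4 changed sign. *Cd44*, *Icam1*, *Itga4*, *Itgb2* and *Cd69* kept their calls under each alternative. *Itgb7*, not called, was at 0.04 with upper-quartile scaling, 0.0846 with library totals, 0.0045 with at least 10 counts in every library and −0.106 to 0.0166 with each library left out. Of 571 repeats for the other named genes 530 kept both, 25 lost the call, 3 gained it and 13 changed sign, the last all of genes not called: *Tln1* (0.0009 with RLE, 0.0676 with the upper quartile, 0.112 with library totals, 0.032 with at least 10 counts in every library, −0.0434 to 0.0104 with a library left out), *Itgb3* (0.0353 with the upper quartile, 0.0797 with library totals, −0.158 to 0.0515 with a library left out), *Itgav* (−0.024 to 0.0295 with a library left out) and *Sipa1* (−0.0141 to 0.0191 with a library left out). Lower calls among the egress and homing receptors went from 4 to 2 with RLE, upper-quartile or library-total scaling, at least 10 counts in every library or DESeq2, and ranged from 2 to 4 with a library left out. Higher calls among integrin ligands went from 1 to 2 with the upper quartile, library totals or at least 10 counts in every library, and from 1 to 3 with a library left out. Higher calls among CD44 partners went from 10 to 6 with DESeq2 and ranged from 6 to 9 with a library left out, and lower calls among other integrin subunits from 3 to 5. The causes were not tested. Same-numbered samples of replicates 2 and 3 did not deviate together (correlation 0.007 across genes), so these numbers were not taken to pair samples; the replicate block gave 5384 lower and 5261 higher genes, against 5252 and 5122, and 5 higher and 3 lower of the 10, *Itgal* being added. With a library left out, the lone sample is assumed to vary like the other group. In the replicate 1 pair the directions of the 10 genes held with median scaling; the other pseudocount and the floor of 1 FPKM could not have changed them.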

Other observations

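Other alpha chains that can pair with beta 2 were low. *Itgam*, the alpha M chain of myeloid cells, was at 1.24 and 0.993 CPM in the DMSO libraries and 2.62 and 2.51 CPM in the inhibitor libraries, and *Itgax* was at 0.970 and 1.25 CPM and at 2.70 and 2.45 CPM. Both rose while *Itgb2* fell (log2 fold changes 1.20 and 1.21, adjusted p = 0.00227 and 0.00234 by the edgeR quasi-likelihood F-test, Benjamini-Hochberg-adjusted), at levels far below that of *Itgb2*. The alpha D chain, *Itgad*, did not rise with them. It was at 0.543 and 0.441 CPM in DMSO and 0.282 and 0.531 CPM with the inhibitor, and was not called (adjusted p = 0.636 from edgeR). The macrophage and dendritic-cell markers rose in the same libraries as *Itgam* and *Itgax*, and their part was not tested. The alpha v chain, *Itgav*, was at 178 and 181 CPM in DMSO and 177 and 183 CPM with the inhibitor, with overlapping groups, and at 25.0 and 25.6 FPKM in the replicate 1 pair.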
